A study of Mus musculus with 30 samples.

Results

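Dihydrorotenone, a hydrogenated relative of the plant toxin rotenone, was compared with the solvent DMSO in cultured mouse fibroblasts. The comparison took the 3 libraries labelled Dihydrorotenone and the 6 labelled DMSO, of 30 libraries in the series. All genes at 1 TPM or more in at least 3 of these 9 libraries were used, which were 12899 of the 29861 listed. TPM is a relative abundance, corrected for the length of the transcript and scaled to the same total in every library. At that limit, 184 genes reached 1 TPM in exactly 3 libraries, with a median mean level of 0.879 TPM. The 263 genes that reached it in exactly 2 libraries were left out, with a median mean level of 0.702 TPM.

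The study treated cells with 8 compounds or DMSO, and its title concerns a small molecule screen for cellular stress resistance with and without NRF2. The cells were CCG-HTA-1, a primary tail fibroblast line from UMHet3 mice, a genetically mixed stock. They were at passage 4, in high-glucose DMEM lacking pyruvate with 10% fetal calf serum, under ambient oxygen and 10% CO2. RNA was collected 48 hours after the compound or DMSO was added, and ribosomal RNA was depleted. Both groups used here, and the Antimycin A libraries used below, shared this line, medium and time, and no dose is given in the labels. Donor mice were 5 to 8 weeks old, except that the label of Dihydrorotenone replicate 1 gives 8 to 11 weeks. All libraries come from 1 line, so p-values measure the spread between these samples, which may be technical.

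Rotenone-type compounds block complex I, the entry point at which the respiratory chain takes electrons from NADH. Cells with an impaired chain are known to turn to glycolysis, and the transcription factor ATF4 is known to induce amino acid synthesis genes under mitochondrial stress. Interferon-stimulated genes answer to type I interferon or to sensing of nucleic acids, including mitochondrial ones. Fibroblasts also secrete matrix, chemokines and acute-phase proteins, the last of these largely under NF-kB.

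Between 12508 and 12700 genes reached 1 TPM in each of the 9 libraries, and the 20 most abundant genes held 17.4% to 19.3% of the listed TPM. The first principal component held 25% of the variance and separated the 3 Dihydrorotenone libraries (-17.9 to -15.4) from the 6 DMSO libraries (5.49 to 11.1). DMSO replicate 6 stood apart on the second component, at 23.3. Fibroblast markers were present in all libraries, with a sum over 8 markers of 6799 to 8488 TPM in DMSO and 7082 to 7732 TPM in Dihydrorotenone (3 fell and 1 rose). Of 8 macrophage markers, 7 were tested, and of these 3 fell and none rose. Over all genes tested, 10.1% fell and 5.23% rose. The summed level of the 8 was 203 to 268 TPM in DMSO and 170 to 180 TPM in Dihydrorotenone. Lyz2, taken up below, was a large part of this sum, so the sum does not stand for the other markers. Ptprc, the pan-leukocyte gene, stayed under 1 TPM in all 9 libraries. Defining markers of endothelium (Pecam1, Cdh5), keratinocytes (Krt5, Krt14), skeletal muscle (Myod1) and melanocytes (Dct, Sox10) were also under 1 TPM in all 9. Other markers were not absent. In DMSO the endothelial list summed to 5.42 to 8.75 TPM and the keratinocyte list to 2.03 to 2.94 TPM. Schwann cell and melanocyte markers summed to 3.98 to 6.11 TPM, chondrocyte markers to 3.74 to 6.18 TPM and adipocyte markers to 17.2 to 28.6 TPM.

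The response was broad and shallow. The test (limma across all 30 libraries on log2(TPM + 1), adjusted p under 0.05) called 1980 of 12899 genes, or 15.4%. Of these, 675 were higher in Dihydrorotenone (5.23% of the genes tested) and 1305 lower (10.1%). The median fold of the called genes was 1.21, 1811 of them (91.5%) differed by less than 1.5-fold, and 27 (0.209%) by 2-fold or more. A fit of the 9 libraries alone called 969 genes (7.51%), 341 higher (2.64%) and 628 lower (4.87%), of which 930 were among the 1980. The balance of directions depended on scaling. Higher genes made up 34.1% of the calls as deposited, 51.0% with median-ratio scaling and 46.9% with quantile normalization. In 664 genes (5.15%) all 3 Dihydrorotenone libraries lay above all 6 DMSO libraries, and in 1327 (10.3%) all 3 lay below. Unless a sentence says otherwise, fold changes below are log2 differences of Dihydrorotenone minus DMSO with their standard error (SE). The 15 largest rises and 15 largest falls were chosen among genes whose groups did not overlap. For these genes a lack of overlap is a condition of the choice and adds no evidence.

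Many interferon-stimulated genes were higher. Of 50 tested members of a type I interferon list, 34 rose and none fell, with a median log2 difference of 0.43 beside -0.03 over all genes tested. The count was 25 in the 9-library fit, 25 without Dihydrorotenone replicate 1 and 29 without DMSO replicate 6. Ifit3, an interferon-induced RNA-binding antiviral protein (chr19:34583531-34588731, GRCm38, plus strand), had the largest rise of the genes named. It was at 319.8, 258 and 233 TPM in the 3 Dihydrorotenone libraries, against a lowest of 71.9, a median of 132 and a highest of 140.1 TPM in DMSO. The groups did not overlap, and the means were 270.2 ± 44.7 (SD, n = 3) and 120.4 ± 26.6 TPM (SD, n = 6). Ifit3 rose by 1.18 (SE 0.18, adjusted p = 7.68e-05). Ifit3 shares 61.8% of its 31-base words with other genes and its neighbour Ifit3b 55.3%, so the split of reads between these copies is uncertain. Ifit3b rose by 1.17.

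Irf7, the transcription factor that amplifies the interferon response, was at 141, 123 and 108 TPM with Dihydrorotenone and at 46.4, 62.0 and 72.0 TPM (lowest, median, highest) in DMSO. Every treated library was above every DMSO library, and the log2 difference was 1.0 (SE 0.13, adjusted p = 1.64e-05). Bst2, the tetherin that holds virus particles at the cell surface, was at 605, 519.9 and 489 TPM, against 228, 289 and 332 TPM in DMSO. It rose by 0.90 (SE 0.11, adjusted p = 4.48e-06). Usp18, which removes the ubiquitin-like protein Isg15 and dampens interferon signalling, rose from 32.2 ± 3.13 (SD, n = 6) to 56.8 ± 9.40 TPM (SD, n = 3), and Isg15 itself from 88.2 ± 14.7 to 139.6 ± 19.2 TPM. In Ifit3, Irf7, Bst2, Usp18 and Isg15 the groups did not overlap, which the choice of named genes required for all but Isg15. Phf11d and Ifit1 of the list, and Calhm6 outside it, were also among the 15 largest rises, at log2 differences of 0.87, 0.76 and 0.86.

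Upstream sequence of these genes is shown because several carry copies of the interferon-stimulated response element, searched as GAAA, any 2 bases and GAAA on both strands in the 250 bases before the gene start (RefSeq, GRCm38.p6). The element was in 3.26% of the 9620 tested genes with a promoter entry, in 9.30% of the higher genes with one (44 of 473) and in 2.67% of the lower genes. Among list members with an entry it was in 15 of 37 type I interferon genes (40.5%) and in 9 of 10 interferon-inducible GTPases. Matches, which may overlap each other, are in capitals, and each stretch is read 5′ to 3′ on the gene's own strand.
Ifit3 (chr19:34583353-34583436, plus strand): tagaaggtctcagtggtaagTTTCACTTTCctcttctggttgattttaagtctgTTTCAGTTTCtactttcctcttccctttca
Ifit1 (chr19:34640765-34640833, plus strand): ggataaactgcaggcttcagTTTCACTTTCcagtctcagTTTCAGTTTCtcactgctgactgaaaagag
Bst2 (chr8:71537567-71537622, minus strand): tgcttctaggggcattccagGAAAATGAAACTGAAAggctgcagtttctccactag
Isg15 (chr4:156200855-156200916, minus strand): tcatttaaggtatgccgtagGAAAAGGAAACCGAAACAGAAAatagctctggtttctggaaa
Calhm6 (chr10:34128007-34128056, minus strand): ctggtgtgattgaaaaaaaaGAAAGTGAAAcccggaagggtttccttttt
Irgm1 (chr11:48871421-48871470, minus strand): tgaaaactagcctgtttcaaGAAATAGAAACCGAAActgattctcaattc
Ifit3b (chr19:34607749-34607832, plus strand) carries the same stretch as Ifit3, letter for letter. A match describes these letters only, and binding was not measured.

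**Figure D1:**
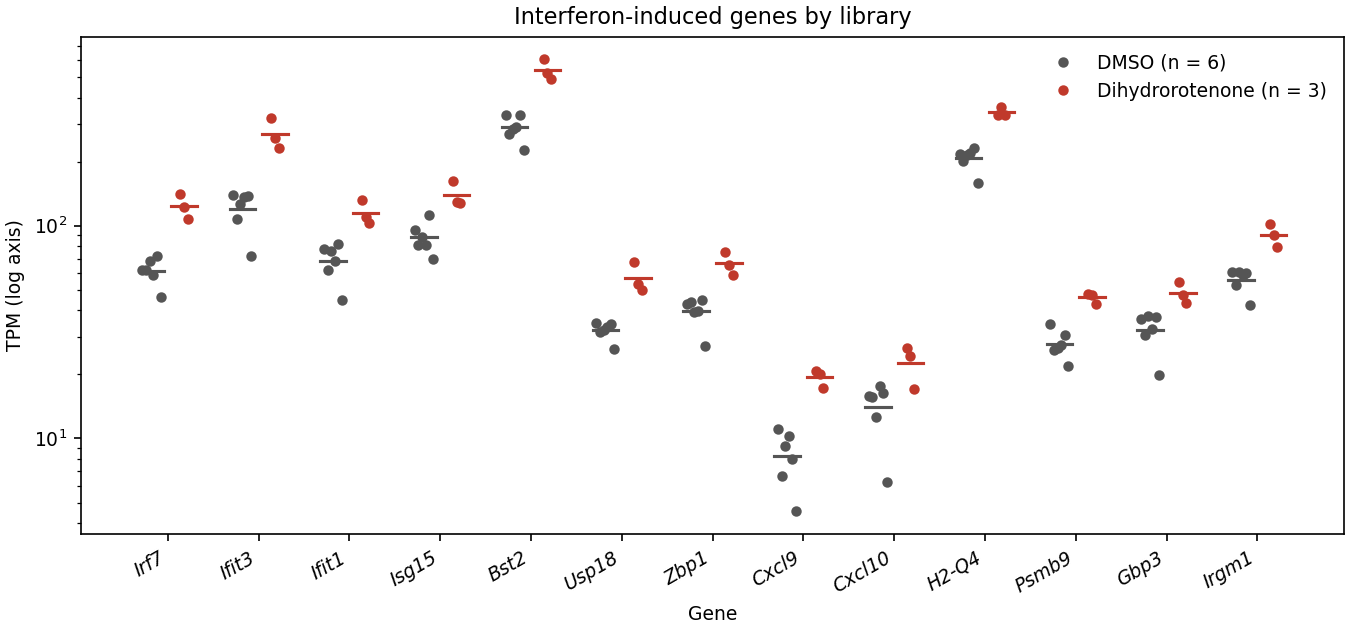
TPM on a log axis for 13 interferon-induced genes in each of the 6 DMSO (grey) and 3 Dihydrorotenone (red) libraries. Points are libraries and bars are group means; the treated points lie above all DMSO points for each gene but Cxcl10.

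Members of other interferon-linked lists also rose. Of 15 tested interferon-inducible GTPases, which attack vacuoles of intracellular pathogens, 11 rose and none fell (median 0.47), 4 rose in the 9-library fit and 7 without Dihydrorotenone replicate 1. Irgm1, a regulator of this family, was at 102, 90.6 and 79.8 TPM with treatment and at 42.4, 59.3 and 60.8 TPM in DMSO. All treated values lay above the DMSO range, and it rose by 0.70 (SE 0.11, adjusted p = 9.13e-05). Gbp3 rose by 0.59, although its adjusted p was 0.0632 in the 9-library fit.

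Of 21 genes of class I antigen presentation, 17 rose and none fell (median 0.36), and this held for 16 in the 9-library fit. H2-Q4, a class I heavy chain of the Q region, was at 329.8, 363 and 330.1 TPM against 158, 217 and 231 TPM in DMSO. The log2 difference was 0.72 (SE 0.08, adjusted p = 3.24e-06), and 53% of its 31-base words occur in other genes. Psmb9, a catalytic subunit of the immunoproteasome, was at 47.9, 47.4 and 43.0 TPM against 22, 27.0 and 34.4 TPM, a log2 difference of 0.72. B2m, the light chain shared by all class I molecules, rose from 4395 ± 395 (SD, n = 6) to 5392 ± 556 TPM (SD, n = 3), with an adjusted p of 0.00281, and of 0.0669 in the 9-library fit. Nlrc5, the class I transactivator, did not pass (-0.29, adjusted p = 0.409).

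Of 13 chemokines that draw T cells and monocytes, 6 rose and 1 fell. Cxcl9, a ligand of CXCR3, was at 20.7, 20.1 and 17.3 TPM with Dihydrorotenone and at 4.56, 8.63 and 11.1 TPM in DMSO, and rose by 1.17 (SE 0.16, adjusted p = 1.89e-05). Cxcl11, a further CXCR3 ligand, rose by 1.17 from 2.86 ± 0.972 (SD, n = 6) to 7.47 ± 0.772 TPM (SD, n = 3), and 42.2% of its 31-base words occur elsewhere. The groups did not overlap in either, which the choice of named genes required. Cxcl10 rose by 0.69 (adjusted p = 0.0160), but its groups overlapped and its adjusted p was 0.140 in the 9-library fit. The abundant Ccl5 rose from 3666 ± 476 (SD, n = 6) to 4955 ± 336 TPM (SD, n = 3), whereas Ccl2, the main monocyte attractant, fell by 0.22 with overlapping groups. The fall of Ccl2 was not called in the 9-library fit, with median-ratio scaling, or without Dihydrorotenone replicate 2 or 3.

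Most signalling components did not pass, which was also true of all genes tested. Of 28 tested genes for interferon receptors, signal transducers and nucleic acid sensors, 3 rose, Irf7 and Ifi205 among them, and 2 fell. There were 5 rises without DMSO replicate 5. Over all genes tested, 5.23% rose and 10.1% fell. This signalling list had a median of 0.06, beside 0.43 for the type I interferon list. Both signalling genes that fell are upstream components. Ifngr1, a chain of the interferon-gamma receptor, was at 56.9, 55.9 and 54.4 TPM against 67.8, 78.4 and 85.2 TPM in DMSO, with no overlap (-0.45, SE 0.05, adjusted p = 3.40e-06). Tmem173, the adaptor STING that signals cytosolic DNA, fell by 0.28 (SE 0.06, adjusted p = 0.00241). The interferon beta gene Ifnb1 was listed at 0 in all 3 Dihydrorotenone libraries and at no more than 0.0953 TPM in DMSO.

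DMSO replicate 6 was the lowest DMSO library in the median of each of these 3 lists. Over the type I list its median was 0.38 below the DMSO mean on the log2 scale, while the other 5 DMSO libraries lay between -0.05 and 0.15 and the treated libraries between 0.34 and 0.55. Without it, the list's median difference was 0.36, with 10 GTPases and 17 antigen presentation genes called higher.

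**Figure D2:**
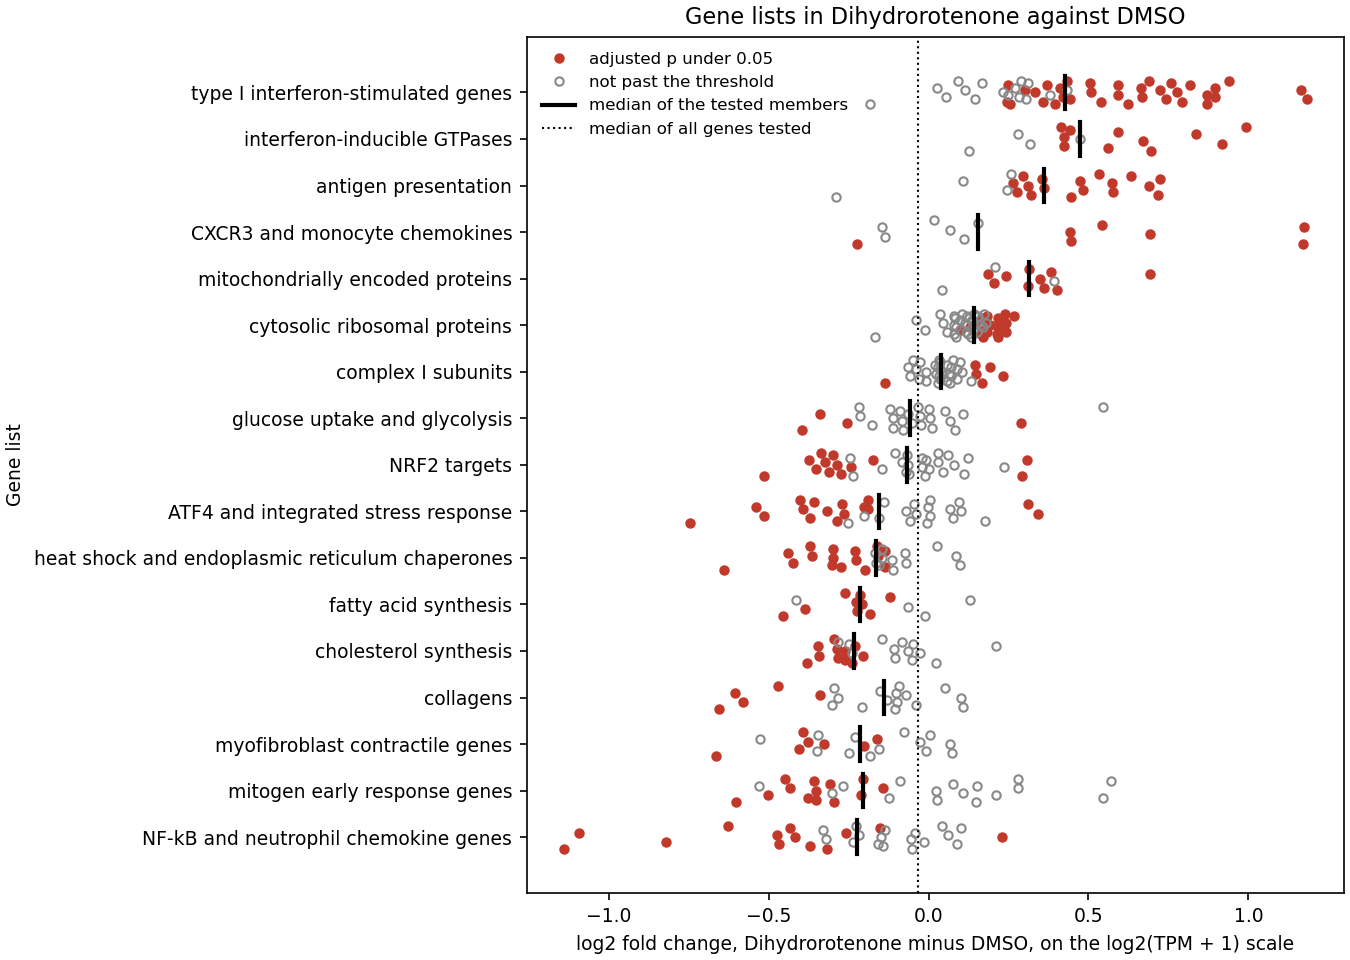
Log2 difference of Dihydrorotenone minus DMSO for the tested members of 17 gene lists. Filled points passed adjusted p under 0.05, open points did not, the short bars are list medians and the dotted line is the median of all genes tested (-0.03); the medians of the interferon-induced lists lie to its right and those of the NF-kB and collagen lists to its left.

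Transcripts of the mitochondrial genome, which encodes part of complex I and of complexes III, IV and V, were mostly higher. Most nuclear subunit genes did not pass, as was true of all genes tested (5.23% rose and 10.1% fell). Of 13 mitochondrially encoded protein genes, 10 rose and none fell (median 0.32). That count was 4 in the 9-library fit and 3 without Dihydrorotenone replicate 1, where the median was 0.23. It was 6 without DMSO replicate 5 and 5 with quantile normalization. The 13 genes together held 6.69%, 5.64% and 6.02% of the listed TPM in the 3 treated libraries and 4.62% to 5.39% in DMSO, with no overlap. Of the complex I members, mt-Nd6 was at 2852, 2882 and 2987 TPM against 1898, 2312 and 2551 TPM in DMSO and rose by 0.35 (SE 0.08, adjusted p = 0.00439). mt-Nd2 rose by 0.36 (adjusted p = 0.00232) and mt-Nd5 by 0.38 (adjusted p = 0.00328, and 0.0573 in the 9-library fit). mt-Nd1, which is read from the same strand as most of the others, had a log2 difference of 0.04 (adjusted p = 0.708). Nuclear copies of 7 of these genes are in the annotation, sharing at least 25% of 31-base words with them. With 9 such copies added, 7 of the 13 sums were higher in all 3 treated libraries than in all 6 DMSO libraries, and the share of listed TPM was 7.46% to 8.51% against 6.09% to 7.25%.

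**Figure D3:**
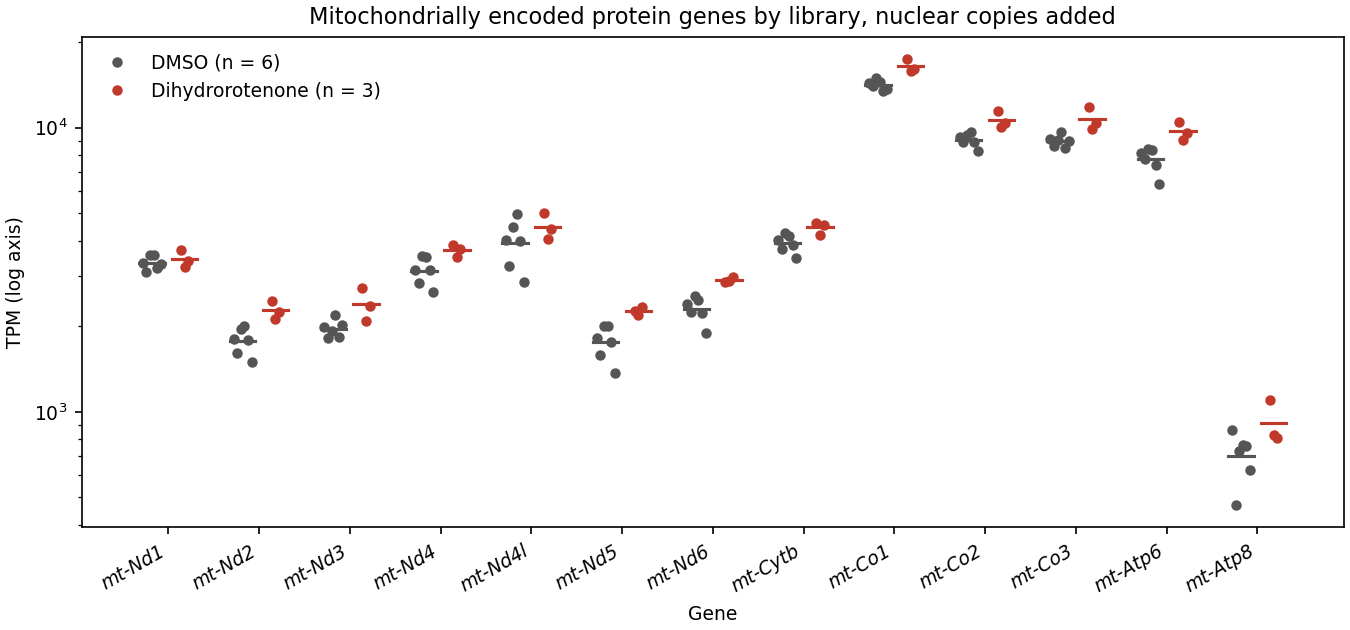
TPM on a log axis for the 13 mitochondrially encoded protein genes, each with its nuclear copies added, in the 6 DMSO (grey) and 3 Dihydrorotenone (red) libraries, with group means as bars. For 7 of the 13 genes the red points all lie above the grey ones.

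Of 36 nuclear complex I subunit genes, 5 rose and 1 fell (median 0.04), and 1 of them, Ndufa6, passed in the 9-library fit. The 5 rises became 1 to 3 when Dihydrorotenone replicate 2 or 3 or DMSO replicate 2, 3, 4 or 5 was left out, 3 with median-ratio scaling and 1 when rescaled without the 20 most abundant genes. Ndufa6 was at 285, 265 and 238 TPM against 211, 219 and 237 TPM in DMSO, a log2 difference of 0.23 (SE 0.06, adjusted p = 0.00729). Ndufs1, the subunit that carries iron-sulfur clusters at the NADH end, was the one that fell, by 0.14 (adjusted p = 0.0487, and 0.139 in the 9-library fit). None of 15 complex I assembly factors passed, and 3 of 38 nuclear genes of complexes II to V rose, with 1 rise under quantile normalization. Mitochondrial ribosomal proteins gave 2 rises among 45, and 0 to 4 over the other scalings and left-out libraries. Without Dihydrorotenone replicate 1, none of these 4 nuclear lists had a gene past the threshold in either direction. Cytosolic ribosomal protein genes, which share sequence with many pseudogenes, gave 21 rises and no fall among 51 (median 0.14). The count was 8 in the 9-library fit, 12 without Dihydrorotenone replicate 1 and 10 with quantile normalization.

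Glycolysis genes did not rise as a group, and their counts were near the shares over all genes tested (5.23% rose and 10.1% fell). Of 26 tested, 1 rose and 3 fell, and the list's median of -0.06 changed sign without Dihydrorotenone replicate 1 (0.004). Ldhb, the lactate dehydrogenase subunit that favours pyruvate formation, rose from 50.3 ± 1.26 (SD, n = 6) to 61.7 ± 3.42 TPM (SD, n = 3). Slc16a1, the lactate transporter MCT1, was at 71.3, 75.9 and 82.0 TPM against 97.7, 101 and 103 TPM in DMSO and fell by 0.40 (SE 0.07, adjusted p = 0.000209). Among 18 targets of hypoxia-inducible factor outside glycolysis, 3 fell and none rose. The median of -0.09 also changed sign without Dihydrorotenone replicate 1 (0.006). Adm, which encodes the vasodilator adrenomedullin, fell by 0.63 and P4ha2, a collagen prolyl hydroxylase, by 0.57, with no overlap in either. Angptl4, an inhibitor of lipoprotein lipase outside that list, was at 70.3, 84.1 and 85.8 TPM against 136, 166 and 196 TPM and fell by 1.04 (SE 0.14, adjusted p = 2.77e-05).

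Among ATF4 and NRF2 targets, more fell than rose, as was true of all genes tested (10.1% fell and 5.23% rose). Of 33 ATF4 and integrated stress response genes, 14 fell and 2 rose (median -0.16). In the 9-library fit 4 fell and 1 rose, and 8 fell and 2 rose without Dihydrorotenone replicate 1. Without replicate 3, 9 fell and 1 rose. Pycr1, the last enzyme of proline synthesis, was at 8.54, 11.1 and 9.79 TPM against 13.9, 17.5 and 19.3 TPM in DMSO and fell by 0.75 (SE 0.12, adjusted p = 0.000187). Slc7a11, the cystine importer, was at 12.2, 13.0 and 13.7 TPM against 15.7, 18.4 and 25.7 TPM and fell by 0.52 (adjusted p = 0.000948). The groups overlapped in neither. The classical reporters Asns, Ddit3 and Trib3 did not pass, with log2 differences of 0.00, 0.18 and -0.16 and adjusted p of 0.988, 0.0960 and 0.307. Nupr1, a stress-induced nuclear protein, rose by 0.31 (adjusted p = 0.000181).

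Of 35 NRF2 targets, which detoxify electrophiles and supply glutathione and NADPH, 11 fell and 2 rose (median -0.07), with 3 falls and 2 rises in the 9-library fit. Without Dihydrorotenone replicate 1, 7 fell and 2 rose, and median-ratio scaling gave 4 rises. The shares over all genes tested were 10.1% lower and 5.23% higher. Gclm, the modifier subunit of glutathione synthesis, fell by 0.31, Hmox1, the haem oxygenase, by 0.32, and Txnrd1, a thioredoxin reductase, by 0.33. Their adjusted p in the 9-library fit were 0.0838, 0.134 and 0.0547. Nqo1, a quinone reductase commonly read as an NRF2 reporter, was at 97.2, 90.7 and 89.6 TPM, inside its DMSO range of 79.4 to 108 TPM. Cbr1, a carbonyl reductase, rose from 81.4 ± 3.92 (SD, n = 6) to 99.8 ± 1.18 TPM (SD, n = 3; adjusted p = 6.69e-05). Ftl1, the ferritin light chain, rose by 0.31 and shares 64.1% of its 31-base words with other genes.

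Of 16 mitochondrial stress proteins and mitokines, 3 rose and none fell, and 1 rose without Dihydrorotenone replicate 1 or without DMSO replicate 5. Chchd10, a protein of the intermembrane space, was at 17.6, 20.5 and 13.8 TPM against 5.87, 7.17 and 13.6 TPM in DMSO. It rose by 1.01 (SE 0.17, adjusted p = 0.000172), and the lowest treated library was close to the highest DMSO library. Chchd10 overlaps the more abundant gene Mmp11 on the opposite strand, and sharing of reads between them was not tested. Gdf15, a secreted mitokine, rose by 0.30 with overlapping groups (adjusted p = 0.0260, and 0.168 in the 9-library fit).

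Several inflammatory genes driven by NF-kB fell. Of 30 tested members of that list, 12 fell and 1 rose (median -0.22), and in the 9-library fit 13 fell and none rose. Ccl20, a chemokine that recruits CCR6-bearing lymphocytes (chr1:83116766-83119167, GRCm38, plus strand), was at 36.7, 36.4 and 32.9 TPM against 62.7, 79.2 and 95.5 TPM in DMSO. It fell by 1.14 (SE 0.13, adjusted p = 3.18e-06). Il6, the cytokine interleukin 6, was at 7.86, 5.84 and 5.06 TPM against 10.0, 15.5 and 18.5 TPM and fell by 1.09 (SE 0.24, adjusted p = 0.00237). Ptgs2, the inducible cyclooxygenase, was at 13.0, 13.6 and 14.8 TPM against 21.8, 24.8 and 30.8 TPM and fell by 0.82 (SE 0.09, adjusted p = 2.00e-06). In none of the 3 did the groups overlap, which the choice of named genes required.

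Abundant secreted proteins are also on this list. The neutrophil attractant Cxcl1 was at 1019, 892 and 857 TPM against 1336, 1441 and 1479.9 TPM in DMSO and fell by 0.63 (SE 0.08, adjusted p = 1.14e-05). Lcn2, an iron-sequestering acute-phase protein, fell by 0.43 from 2416 ± 250.2 (SD, n = 6) to 1782 ± 54.1 TPM (SD, n = 3). Saa3, an acute-phase serum amyloid and one of the most abundant transcripts, went from 32372 ± 2519 to 25684 ± 1249 TPM. Its adjusted p was 0.0542, and 0.0275 in the 9-library fit. Tslp, an epithelial and stromal cytokine outside the list, fell by 0.89, and the surface tetraspan protein Tm4sf1 by 0.95.

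Of 7 tested macrophage markers, 3 were also lower, and whether they varied together with these genes was not tested. Lyz2, the myeloid lysozyme, was at 95.9, 99.6 and 101 TPM against 129, 159 and 180 TPM in DMSO and fell by 0.65, and 32.8% of its 31-base words occur elsewhere. Adgre1, which encodes the macrophage surface protein F4/80, fell by 0.67 and Csf1r, the macrophage growth factor receptor, by 0.37. Cd68 was at 13.9, 14.2 and 13.0 TPM, within its DMSO range of 11.5 to 14.7 TPM. Their part in the falls of inflammatory genes was not tested, and in bulk RNA fewer cells of a type cannot be told apart from less RNA per cell.

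The stretches upstream of 4 of the lower genes are printed because each carries the NF-kB pattern, searched as GGGA, any 2 bases and TTCC on both strands in the same window. The pattern was in 1.39% of the tested genes with a promoter entry and in 7 of the 23 NF-kB list members with one (30.4%). It was in 1.98% of the lower genes and 1.06% of the higher genes.
Il6 (chr5:30013050-30013099, plus strand): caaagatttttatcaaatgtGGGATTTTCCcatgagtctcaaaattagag
Cxcl1 (chr5:90891154-90891204, plus strand): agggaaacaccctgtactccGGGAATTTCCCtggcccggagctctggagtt
Cxcl2 (chr5:90903782-90903832, plus strand): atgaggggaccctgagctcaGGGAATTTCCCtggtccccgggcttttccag
Tm4sf1 (chr3:57301989-57302036, minus strand): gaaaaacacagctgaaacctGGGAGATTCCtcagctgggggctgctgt
Matches are in capitals, and overlapping matches run together. Cxcl2, a neutrophil chemokine, fell by 0.42 (adjusted p = 0.00854).

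**Figure D4:**
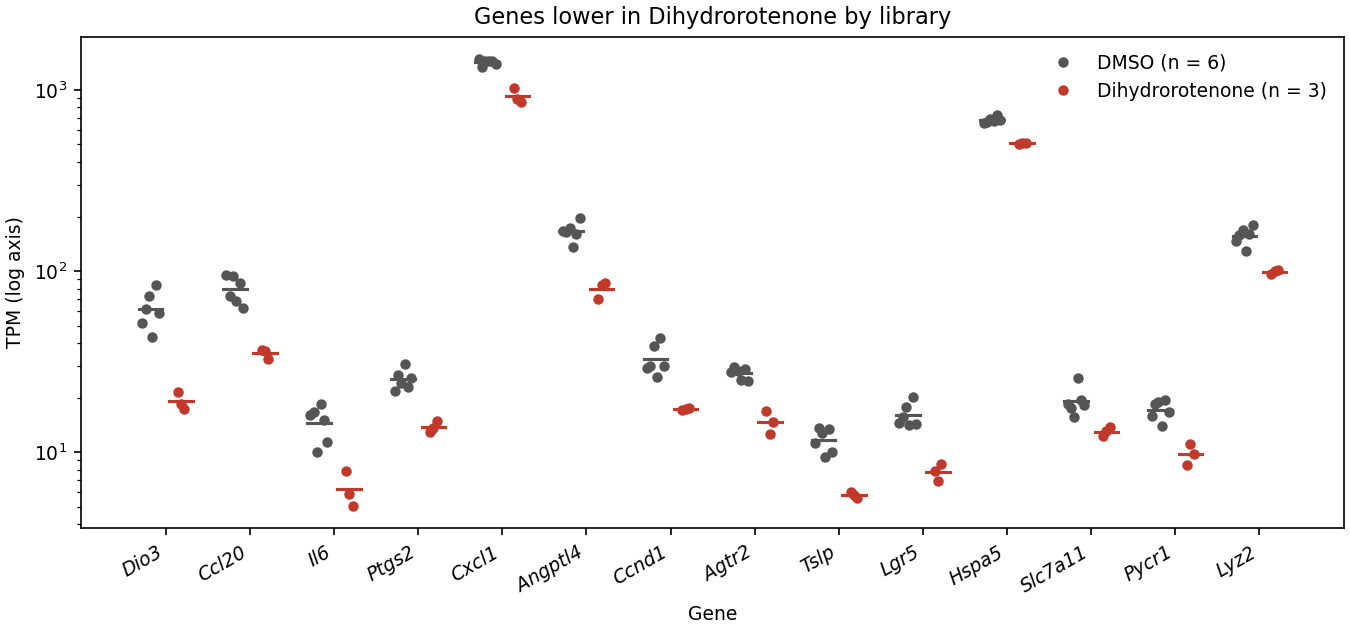
TPM on a log axis for 14 genes that were lower with Dihydrorotenone, in the 6 DMSO (grey) and 3 Dihydrorotenone (red) libraries, with group means as bars. All red points lie below all grey points for each of the 14 genes.

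Dio3 had the largest fall of the named genes. It encodes the deiodinase that inactivates thyroid hormone and lies in the imprinted Dlk1-Dio3 domain (chr12:110279068-110281097, GRCm38, plus strand). It was at 21.5, 18.5 and 17.4 TPM with Dihydrorotenone against a lowest of 43.1, a median of 60.0 and a highest of 84.0 TPM in DMSO. The groups were far apart, and Dio3 fell by 1.62 (SE 0.15, adjusted p = 1.57e-07). Dlk1, its neighbour in the domain, was at 31.5, 28.3 and 27.4 TPM, against 23.9 to 30.3 TPM in DMSO. The list that holds Dio3 and Dlk1 also holds imprinted genes of other chromosomes. Of its 7 tested members 4 fell and 1 rose, and 2 fell without Dihydrorotenone replicate 2. Plagl1, an imprinted zinc finger factor on chromosome 10, went from 19.7 ± 4.04 (SD, n = 6) to 11.9 ± 1.30 TPM (SD, n = 3), and Cdkn1c, an imprinted inhibitor of the cell cycle on chromosome 7, from 14.8 ± 1.38 up to 21 ± 1.57 TPM.

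Some genes known to answer growth-factor signalling were lower. Of 29 mitogen early response genes, 13 fell, none rose and 16 did not pass (median -0.21), with 6 falls in the 9-library fit and 6 without Dihydrorotenone replicate 1. Dusp6, the phosphatase that feeds back on ERK, was at 12.7, 16.1 and 14 TPM against 18.1, 20.9 and 21.5 TPM in DMSO and fell by 0.50 (SE 0.07, adjusted p = 2.38e-05). Etv5, an ERK-dependent transcription factor, fell by 0.45 and Klf2, a Krüppel-like factor, by 0.60. Ccnd1, cyclin D1, was at 17.1, 17.2 and 17.5 TPM against 25.9, 29.9 and 42.5 TPM and fell by 0.86 (SE 0.11, adjusted p = 6.91e-06). Among 26 tested cell cycle genes 1 rose and 2 fell, with 1 fall without Dihydrorotenone replicate 2 or 3, and Mki67, the proliferation marker, was under 1 TPM in all 9 libraries. Of 19 p53 targets 5 rose and 1 fell, and none passed in either direction in the 9-library fit. The 5 rises became 0, 1 and 3 without Dihydrorotenone replicates 1, 2 and 3, and 3 without DMSO replicate 5.

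A minority of contractile and matrix genes passed, most of them lower. In each list the falls were still a larger share than the 10.1% over all genes tested. Of 20 myofibroblast genes 7 fell, of 20 collagens 5, and of 38 other matrix and crosslinking genes 12, while none, none and 2 rose. Myofibroblast falls became 3 without Dihydrorotenone replicate 2. Matrix falls became 8 without replicate 1, where the collagen median was -0.05. The 2 matrix rises varied from 0 to 6 over the left-out libraries and scalings. Col3a1, the type III fibrillar collagen, was at 1684, 2103 and 2139.8 TPM against 2486, 2737 and 3027 TPM in DMSO and fell by 0.47 (adjusted p = 0.00138). Col12a1 and Col11a1 fell by 0.58 and 0.65, whereas Col1a1 did not pass (-0.13, adjusted p = 0.565). Mmp3, a matrix metalloproteinase and a major transcript of these cells, fell by 0.38 from 22047 ± 659.6 (SD, n = 6) to 16994 ± 846 TPM (SD, n = 3). Mmp11, a metalloproteinase with a furin site, moved the other way. It was at 538, 701 and 665 TPM against 213, 299.5 and 477 TPM and rose by 0.95 (SE 0.17, adjusted p = 0.000291). Mmp11 (chr10:75923222-75936496, minus strand) overlaps Chchd10 (chr10:75933130-75937747, plus strand), which also rose. Of their 31-base words, 4.46% and 8.30% occur in other genes. Whether reads were shared between these genes was not tested, so their rises may not be separate.

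Other named falls included surface and stromal genes. Agtr2, the type 2 angiotensin receptor, was at 16.9, 12.6 and 14.7 TPM against 24.6, 28.0 and 29.6 TPM in DMSO and fell by 0.85 (SE 0.11, adjusted p = 7.90e-06). Lgr5, a receptor for R-spondins, was at 7.89, 6.93 and 8.60 TPM against 14.1, 15.1 and 20.1 TPM and fell by 0.95. Pi16, a marker of a universal fibroblast state, fell by 1.03 (SE 0.31, adjusted p = 0.0232), and its adjusted p was 0.136 without Dihydrorotenone replicate 1 and 0.0723 without replicate 2. Palmd, Gdpd2 and Cavin2 fell by 0.96, 0.90 and 0.86. Among the named rises outside the interferon lists, Mustn1, a small nuclear protein of muscle and cartilage, was at 58.5, 61.6 and 57.4 TPM against 30.9, 34.7 and 37.9 TPM and rose by 0.77 (SE 0.07, adjusted p = 9.88e-08).

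Genes of protein folding and lipid synthesis were among the small falls. Of 28 heat shock and endoplasmic reticulum chaperone genes 16 fell and none rose (median -0.16), with 13 falls in the 9-library fit and 16 without Dihydrorotenone replicate 1. Hspa5, the chaperone BiP, was at 504, 507 and 511 TPM against 655, 678 and 724 TPM in DMSO and fell by 0.42 (SE 0.05, adjusted p = 1.56e-06). Dnajb9, a BiP co-chaperone, fell by 0.37, and Xbp1, the spliced factor of the unfolded protein response, by 0.27. Hspa1b, a cytosolic Hsp70, fell by 0.64 and shares 68.1% of its 31-base words with other genes. Of 24 cholesterol synthesis genes 11 fell (median -0.23), with 3 falls in the 9-library fit. There were 4, 6 and 7 falls without Dihydrorotenone replicates 1, 2 and 3, 6 with median-ratio scaling and 7 with quantile normalization. Of 13 fatty acid synthesis genes 9 fell, with 4 falls in the 9-library fit, 3 without Dihydrorotenone replicate 1 and 5 without DMSO replicate 5. Scd1, the stearoyl-CoA desaturase, was at 31.3, 30.3 and 33.4 TPM against 37.6, 43.7 and 51.0 TPM and fell by 0.45 (adjusted p = 7.72e-05). Hmgcs1, an early enzyme of the mevalonate pathway, fell by 0.38. Of 16 genes for NADH shuttles and alternative electron entry 1 rose and 1 fell, of 23 genes of the TGF-beta and IGF axis 1 rose and 4 fell, and of 13 clustered histones none passed. The 4 falls became 2 without Dihydrorotenone replicate 1. Of 11 tubulins 5 fell and none rose, with 3 falls without any 1 of the Dihydrorotenone replicates or with median-ratio scaling.

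Antimycin A blocks complex III, further along the same chain, and was set directly against Dihydrorotenone over 3 libraries each. The doses of both are not given, so sizes cannot be matched for dose. This contrast called 2086 genes (16.2%), 537 higher with Dihydrorotenone (4.16%) and 1549 lower (12.0%). Of the type I interferon list, 46 of 50 were lower with Dihydrorotenone than with Antimycin A and none higher (median -0.82). Ifit3, for one, averaged 270.2 ± 44.7 TPM with Dihydrorotenone and 719 TPM with Antimycin A (n = 3 each). Of the ATF4 list, 26 of 33 were lower and none higher (median -0.63). Trib3, a pseudokinase induced by ATF4, averaged 3.86 ± 0.661 and 29.4 TPM (-2.66, SE 0.11, adjusted p = 8.00e-15). Of 35 NRF2 targets 23 were lower and none higher (median -0.28).

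Other lists were higher with Dihydrorotenone than with Antimycin A. Of the 13 mitochondrially encoded genes, 11 were higher and none lower (median 0.93). mt-Cytb averaged 4454 ± 236 TPM with Dihydrorotenone and 1698 TPM with Antimycin A (1.39, adjusted p = 1.03e-12). These genes together held 3.64% to 3.93% of the listed TPM in the 3 Antimycin A libraries, below every DMSO library, while the Dihydrorotenone libraries were above every DMSO library. Not every member was lower with Antimycin A than in DMSO. mt-Nd2 was at 2073 to 2098 TPM with Antimycin A and at 1504 to 2008 TPM in DMSO. mt-Nd3 with its nuclear copy was at 2192 to 2548 TPM and 1818 to 2189 TPM. Of 24 cholesterol synthesis genes 16 were higher (median 0.45), of 20 myofibroblast genes 10 (median 0.45), and none lower in either. Dio3 was at 19.1 ± 2.14 TPM against 5.49 TPM with Antimycin A, a log2 difference of 1.65. Some of the strongest falls were alike in level. Ptgs2 averaged 13.8 ± 0.929 and 14.9 TPM (-0.10, adjusted p = 0.591) and Il6 6.25 ± 1.45 and 5.20 TPM (0.25, adjusted p = 0.605), tests that do not show equality.

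**Figure D5:**
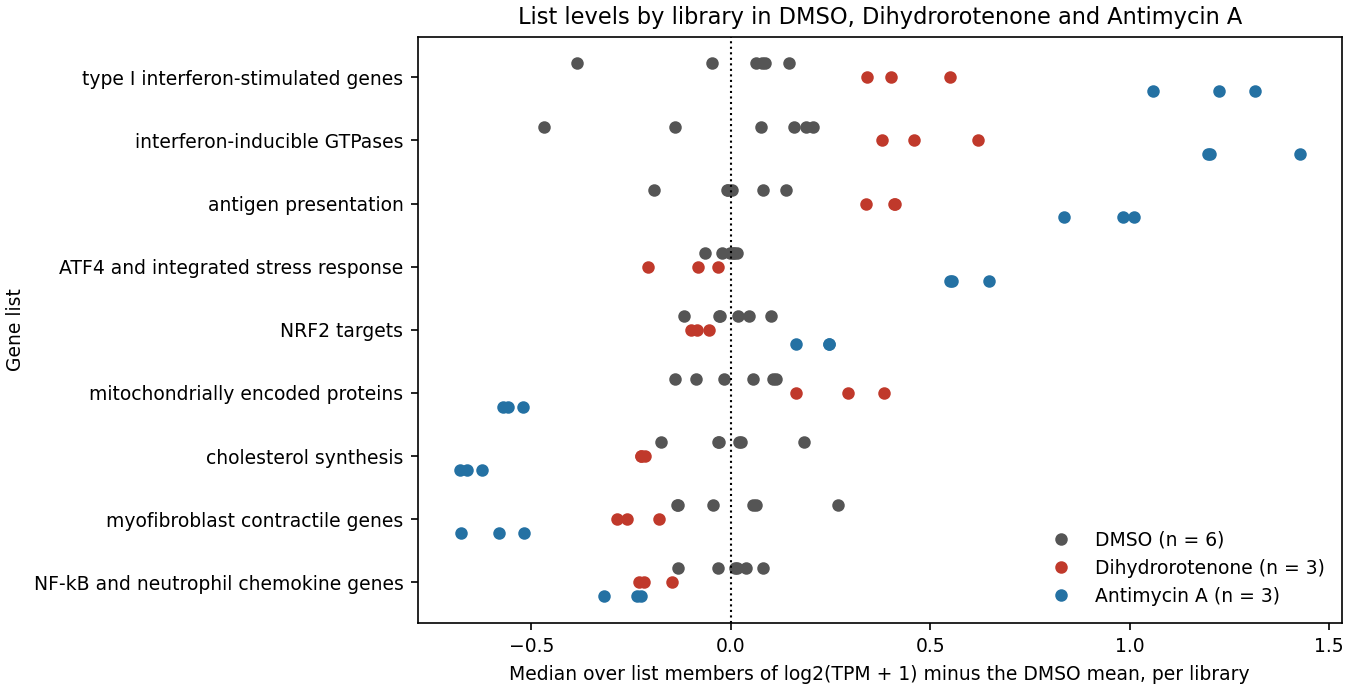
Median over the tested members of 9 gene lists of log2(TPM + 1) minus the DMSO mean, 1 point per library, for DMSO (grey), Dihydrorotenone (red) and Antimycin A (blue). The mitochondrially encoded list lies above DMSO with Dihydrorotenone and below it with Antimycin A, and the 3 interferon lists lie highest with Antimycin A.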

How the data were processed

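RNA-seq of 30 libraries was deposited as 1 table. The authors quantified reads with kallisto (0.43.1, per the submitters' processing notes) and summed them per gene with tximport, per the series text; the deposited values are TPM. The build is mm10 per the notes, and the transcript index is not given in the sources used here. TPM keeps no depth, so depth is unknown and precision rests on the spread between libraries. TPM is relative within a library, and ribosomal depletion and length correction shape it. Values were taken as log2(TPM + 1), which understates changes of low genes.

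Groups came from the sample titles, and library numbers run consecutively within groups, so group and library order cannot be told apart. The series text names 5 DMSO replicates and the labels 6, all used. All 30 libraries were fitted with limma 3.58.1 (R 4.3.3), with 1 mean per group, a trended prior and Benjamini-Hochberg adjustment over the 12899 genes at 1 TPM in at least 3 of 9 libraries, threshold 0.05. The scripts were tested on simulated data. Named genes are the 15 largest rises and 15 largest falls among genes past the threshold, whose higher group averaged 5 TPM or more and whose groups did not overlap, plus members of 31 lists and cell type markers; some are not reported here. The members and lists were chosen with earlier results of these data known. Symbols and coordinates are from GENCODE M21 (GRCm38; 29426 of 29861 genes matched), and sequences from RefSeq (GRCm38.p6). Alternatives varied the pseudocount, filter, scaling, libraries and replicate block.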

Additional observations from a re-analysis of the deposited data

Results flagged for a closer look

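In 67 values examined over the 6 DMSO libraries, 3 had 1 library far from the rest, and chance alone gives about 1 in 20 such groups; groups of 3 were not examined. A family of 12 predicted genes that share at least 10% of the 31-base words of Gm10800 summed to 638.5 TPM in DMSO replicate 6, against 58.4 to 102 TPM in the other 5. The median of the type I interferon-stimulated genes was -0.38 in DMSO replicate 6, relative to the DMSO mean on the log2 scale, and the other 5 lay between -0.05 and 0.15. The median of the TGF-beta and IGF axis list was -0.0390 in DMSO replicate 1 on the same scale.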

How the results depend on the processing

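Fitting the 9 libraries alone gave 969 genes past the threshold, 341 higher and 628 lower. Leaving out 1 library at a time gave 1260 (without Dihydrorotenone replicate 1) to 2210 genes (without DMSO replicate 6), with 409 to 725 higher and 706 to 1491 lower. Without Dihydrorotenone replicate 2, 1287 genes passed, 409 of them higher. The direct contrast with Antimycin A gave 1411 to 1907 genes when 1 library was left out. Whether replicate numbers pair the samples was not settled. Deviations of same-numbered libraries correlated at 0.063, 0.142 and -0.025. Dihydrorotenone replicates 1 and 2 correlated best with the DMSO library of their own number, and replicate 3 with DMSO replicate 6 (0.069). All these correlations are small. With the replicate number as a block, 1698 genes passed, 617 higher and 1081 lower. Of the 30 genes named by the rule, 29 passed in the same direction under all 21 alternatives run. Pi16 did not pass with the replicate block (adjusted p = 0.0759) or without Dihydrorotenone replicate 1 (0.136) or 2 (0.0723). Of 651 list medians recomputed, 44 moved by more than the spread between the replicate libraries of 1 group. The medians of 6 of the 31 lists changed sign under at least 1 alternative. These lists were complex I assembly factors, NADH shuttles, glycolysis, hypoxia-inducible factor targets, cell cycle and clustered histones. The cause was not tested. TPM gives no depth, so limits set by depth could not be computed.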

Other observations

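Mlana and Rab27a, both known from pigment cells, were among the largest rises. Mlana, a melanosome antigen, was at 10.2, 10.3 and 10.5 TPM against 3.0, 4.43 and 5.45 TPM (lowest, median, highest) in DMSO and rose by 1.09 (SE 0.14, limma adjusted p = 7.67e-06). Rab27a, a GTPase of melanosome and exosome transport, was at 12.5, 13.1 and 14.3 TPM against 4.34, 5.37 and 8.55 TPM and rose by 1.10 (SE 0.13, adjusted p = 3.40e-06). The melanocyte marker Pmel averaged 1.61 TPM in both groups (SD 0.172 in DMSO and 0.0452 with Dihydrorotenone), and Dct and Sox10 were under 1 TPM in all 9 libraries. The next 3 genes were chosen after their values were seen, so they do not stand for a group. Gpr143, a melanosome receptor, rose from 0.485 ± 0.195 (SD, n = 6) to 1.97 ± 0.344 TPM (SD, n = 3), Rragd, a GTPase of lysosomal nutrient sensing, by 0.67, and Atp6v0d2, a proton pump subunit, by 0.73. Mitf, which encodes a transcription factor of pigment cells, did not pass (0.07, adjusted p = 0.445). Tyrp1, a pigment enzyme, was listed at 0 in all 9 libraries, and Tyr did not exceed 0.104 TPM.

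The next 4 genes, known from myeloid cells, were chosen because they were lower, and no tally of other myeloid genes was made. Marco, a scavenger receptor of macrophages, was at 0.937, 0.865 and 0.849 TPM against 1.61 to 2.40 TPM in DMSO and fell by 0.64 (adjusted p = 0.00124). Clec4d, a C-type lectin, fell by 0.79, Slc11a1, a phagosomal metal transporter, by 0.61 and Plek, a platelet and leukocyte protein, by 0.54.

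The largest falls of all genes were in the family of predicted genes around Gm10800. Their sum was 13.6, 2.12 and 6.55 TPM with Dihydrorotenone and 58.4 to 638.5 TPM in DMSO. Over the other compounds it was 0.672 to 1.43 TPM with Antimycin A and 52.0 to 147.7 TPM with Podofilox, and 0.672 to 60.9 TPM in the 21 libraries of all compounds but Podofilox. Gm15421 was listed at 0 in all 3 Dihydrorotenone libraries and at 2.62 to 24.6 TPM in DMSO.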
